A study of Mus musculus with 6 samples.

Results

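The genes of the proteasome were examined in RNA sequencing of mouse cells labelled as female germline stem cells (FGSCs), grown with or without metformin. Members were the protein-coding genes whose symbol starts with Psma to Psmg and a number, together with Psmf1, Pomp, Adrm1 and Nfe2l1. The rule found 54 of the 55401 genes listed, and 52 of them had a mean of at least 1 FPKM (fragments mapped to a gene, scaled to its length and to the depth of the library) and were tested. Of the 54, 51 were grouped as subunits, chaperones or regulators of the proteasome. The other 3 (Psmc3ip, Psme3ip1 and Psme2b) match the naming rule and were kept apart. Psmc3ip and Psme3ip1 are named for binding a subunit, and Psme2b is an intronless copy of the activator gene Psme2. The rule itself uses no measured value.

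The proteasome degrades proteins that carry ubiquitin chains. Its barrel-shaped 20S core is built from rings of alpha and beta subunits, and Psmb5, Psmb6 and Psmb7 hold the cutting sites. In blood and immune cells, and in many cells after interferon, Psmb8, Psmb9 and Psmb10 can take the places of these subunits and form the immunoproteasome, which trims peptides for display on MHC class I. The 19S regulatory particle binds ubiquitin chains, unfolds the substrate with a ring of ATPases and feeds it to the core.

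The cells were a C57BL/6 line past passage 20, cultured on inactivated STO fibroblast feeders with LIF, EGF, bFGF and GDNF. The control group (3 libraries) was untreated and the metformin group (3 libraries) received 1 µM metformin, a biguanide used against diabetes, for 24 h. Nothing in the labels says that the libraries came from separate cultures, so p-values measure the spread between these libraries, which may be technical. Depth, read from the FPKM steps of genes with a single exon, was 13400000 to 14000000 fragments per library, and a member took from about 200 to 8497 fragments in a library.

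The label was set against marker genes. All 6 germ cell markers had a mean under 1 FPKM over the libraries, with Dazl, Pou5f1 and Dppa3 at 0 in every library and Ddx4 at 0 to 0.05 FPKM. The highest value of the 6 was 1.32 FPKM, for Ifitm3 in control library 1. All 8 fibroblast markers of the feeders and all 5 ovarian somatic markers also had means under 1 FPKM. All 10 blood cell markers were above 10 FPKM, from 13.4 FPKM for Ptprc to 139 FPKM for Coro1a, and their sum was 669 to 681 FPKM in the control group and 676 to 683 FPKM in the metformin group. The defining germ cell markers Ddx4, Dazl, Pou5f1 and Dppa3 were therefore at or near 0 in these libraries, and the cells are called FGSCs below only as their label. In bulk RNA, fewer cells of a type and less RNA per cell cannot be told apart.

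Some member genes have near-identical copies elsewhere in the genome, and the sequence of the activator gene Psme2 is shown beside that of Psme2b because reads from one can hardly be told from the other. The coding sequences of both, 720 bases each in the coding transcripts of GENCODE M1, differed at 5 bases (99.3% identity). Coding bases 486 to 545 hold 3 of these 5 differences, written in capitals.
Psme2: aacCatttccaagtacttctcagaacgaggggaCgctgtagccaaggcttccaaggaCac
Psme2b: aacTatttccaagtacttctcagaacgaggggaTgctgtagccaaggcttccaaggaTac

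Promoter windows were searched because Nfe2l1, the transcription factor that raises proteasome gene expression when the proteasome is inhibited, binds antioxidant response elements. RefSeq (GRCm38.p6) gave windows of 300 bases (250 before to 50 after a start site) for 46 of the 54 members, 54 windows in all, with a median GC content of 59.5% against 52.7% over all 32851 windows. The strict element TGANTCAGC, searched on both strands, was in 1 of the 54 member windows (1.85%), that of Psmb5, and in 1.19% of all windows. Its looser core TGACNNNGC, which overlaps other such elements, was in 7 member windows (12.96%) against 12.4% of all windows, in Adrm1, Psmb5, Psmb6, Psmc6, Psmd12, Psmd9 and Psme4. The interferon response element, searched as GAAA and a second GAAA after 2 further bases on either strand, was in 5 (9.26%) against 3.44%, the STAT element TTCNNNGAA in 3 (5.56%) against 8.30%, and the CCAAT box in 21 (38.9%) against 37.4%. The 21 windows with a CCAAT box came from 18 genes, and some overlapping windows of Nfe2l1 held the same site. The 5 windows with the interferon response element were those of Psmb3, Psmd4, Psmd9, Psmg4 and the activator gene Psme1. Psmb8 held the STAT element, and neither Psmb8 nor Psmb9 nor Psmb10 held the interferon response element in these windows. The windows of the constitutive catalytic subunits Psmb5 and Psmb6 and of the lid subunit Psmd12 are shown with the TGACNNNGC match in capitals, and those of Psmb3 and Psmd4 with the match to the interferon response element in capitals, all in the direction of the gene. The match in Psmb5 lay 47 to 39 bases before the start (chr14:54618014-54618062, minus strand), in Psmb6 9 to 1 bases before it (chr11:70525328-70525356, plus strand) and in Psmd12 247 to 239 bases before it (chr11:107479278-107479309, plus strand). Psmb3 held its match 163 to 154 bases before the start (chr11:97703251-97703300, plus strand) and Psmd4 80 to 71 bases before it (chr3:95042665-95042714, minus strand). The stretch shown for Psmb5 holds the looser core only. Its strict element did not lie wholly before the start and is not shown.
Psmb5: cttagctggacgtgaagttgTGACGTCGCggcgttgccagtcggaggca
Psmb6: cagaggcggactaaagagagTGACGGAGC
Psmd12: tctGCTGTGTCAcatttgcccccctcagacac
Psmb3: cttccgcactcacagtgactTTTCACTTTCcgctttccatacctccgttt
Psmd4: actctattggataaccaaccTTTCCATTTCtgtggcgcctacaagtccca

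The level of every tested proteasome gene differed little between the metformin and the control group. None of the 52 members passed the test at an adjusted p of 0.05 (limma on log2(FPKM + 1), Benjamini-Hochberg over all 10661 genes tested), where 0.0281% of all genes did (3 genes, all higher). The lowest adjusted p of a member was 0.37, for Psmd12. At an unadjusted p under 0.05, 2 of the 52 members were called (3.85%) beside 10.8% of all genes. Psmc3 was the 1 called higher, beside 6.03% of all genes, and Psmd12 the 1 called lower, beside 4.81%. Leaving out 1 library moved the count of 2 to 0 without control library 2, to 3 without control library 1, to 4 without metformin library 2 and to 6 without metformin library 3. In these fits the shares of the members were 0%, 5.77%, 7.69% and 11.5%, beside 8.60%, 9.34%, 9.92% and 9.60% of all genes, so without metformin library 3 the members' share was the higher. The log2 fold changes were small: the median over the members was -0.0020 against 0.0041 over all genes tested, 25 members lay above 0 and 27 below, and the range ran from -0.086 (Psme2b) to 0.13 (Psmd9).

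The 95% interval of a member's log2 fold change reached 0.078 to either side in the median, against 0.12 over all genes tested. The end of the interval farthest from 0 was between 0.055 (Psmb4) and 0.28 (Psmd9), so for each member a larger change than that end lay outside its interval. The spread between replicates was 2.95% of the mean in the median member, and counting error alone would give 2.24%.

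**Figure D1:**
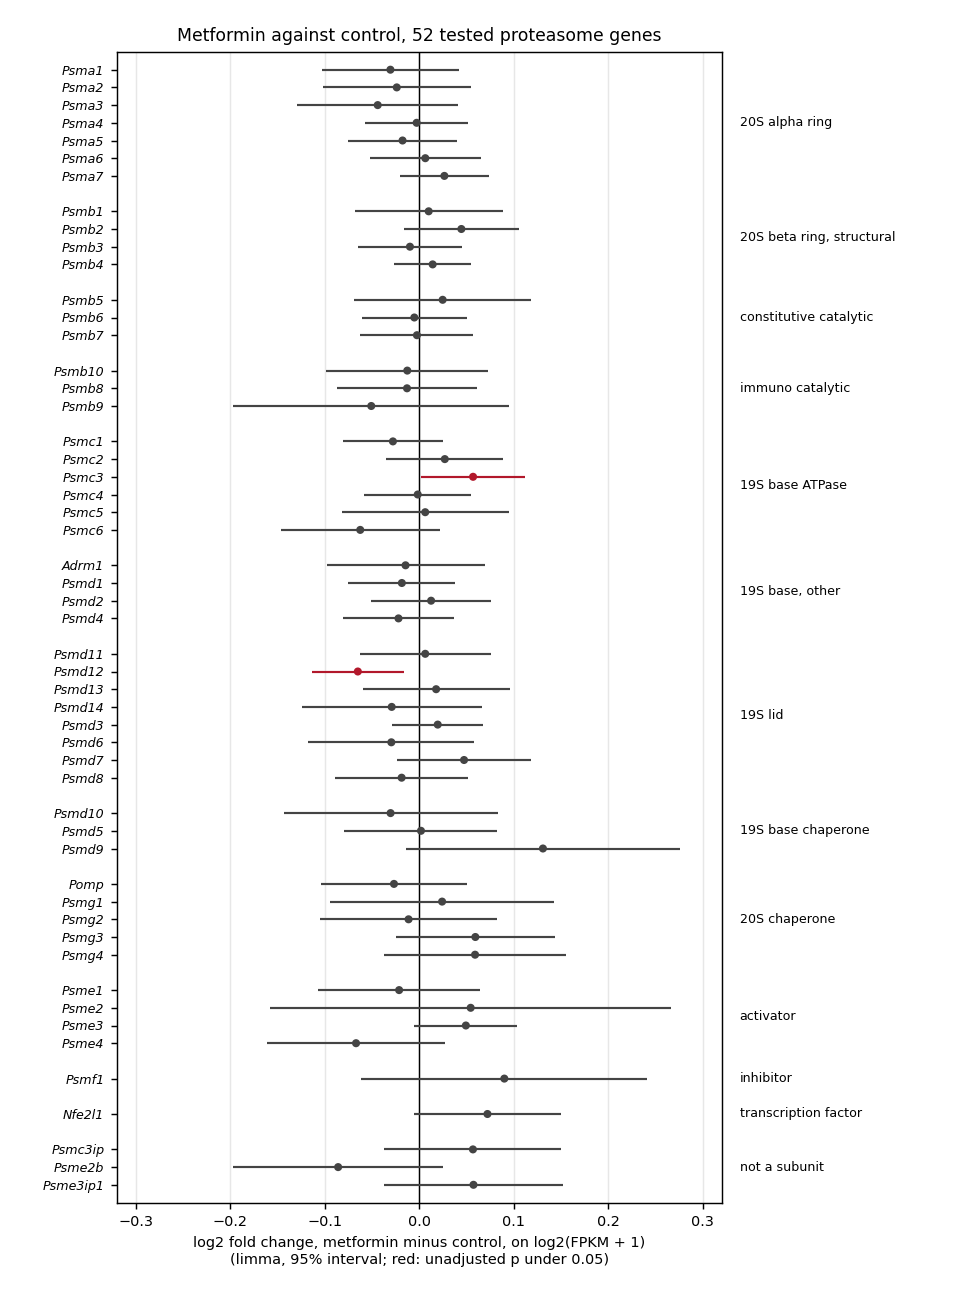
Log2 fold change of each of the 52 tested members (points; x axis, metformin minus control on log2(FPKM + 1)) with its 95% interval from limma (lines), by role. Only the intervals of Psmc3 and Psmd12 (red, unadjusted p under 0.05) leave out 0, and the widest belong to Psme2, Psmf1, Psmb9 and Psmd9.

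By library, all 3 metformin values lay above all 3 control values for 4 members (Psmc3, Psmd3, Psmd9 and Psme3) (7.69%, beside 8.89% of all genes tested) and below them for 1 (Psmd12, 1.92%, beside 8.10%). These 5 of 52 (9.62%) stand beside 17.0% of all genes tested, and beside 19.1% of the 7135 genes whose mean lay between those of the lowest and the highest member.

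**Figure D2:**
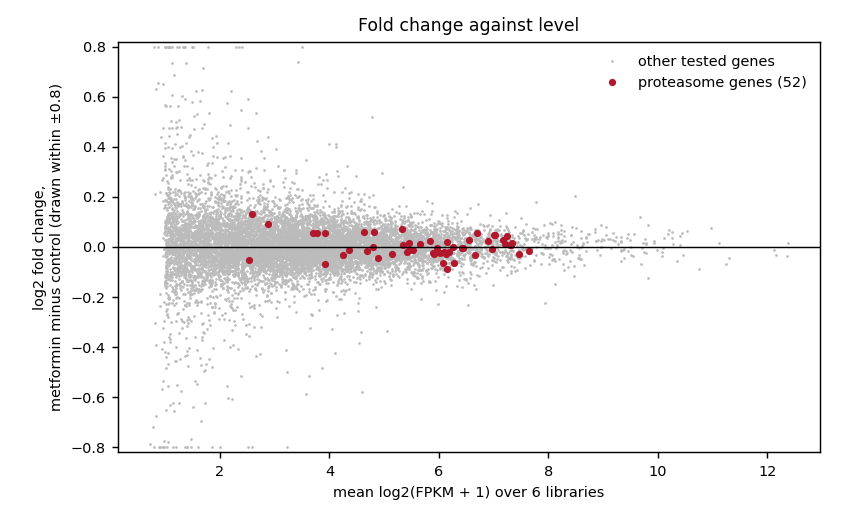
Log2 fold change (y axis, metformin minus control, points beyond ±0.8 drawn at the edge) against the mean log2(FPKM + 1) over the 6 libraries (x axis) for all 10661 genes tested (grey) and the 52 proteasome genes (red). The members lie between -0.086 and 0.13, close to the line at 0.

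The alpha ring frames the core and its gate. Its 7 genes had means from 28.6 FPKM (Psma3) to 200 FPKM (Psma5), and their summed level was 769 to 788 FPKM in the control libraries and 767 to 778 FPKM in the metformin libraries. Psma7 had the highest log2 fold change of the ring, 0.027 (95% interval -0.020 to 0.073), and Psma3 the lowest, -0.044 (-0.13 to 0.041). Psma7 was measured at 142, 142 and 142 FPKM in the control libraries and at 142, 146 and 146 FPKM in the metformin libraries. Psma3 was measured at 28.9, 29.7 and 28.6 FPKM in the control libraries and at 27.7, 27.3 and 29.6 FPKM in the metformin libraries. In both genes the groups overlapped. Psma8, the alpha subunit of spermatocytes, was listed at 0 in all 6 libraries.

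The 4 structural genes of the beta ring had means from 49.2 FPKM (Psmb1) to 160.5 FPKM (Psmb4). Psmb2 had the highest log2 fold change, 0.045 (-0.016 to 0.11), with 146, 149.6 and 148 FPKM in the control group and 150.1, 157 and 149 FPKM in the metformin group. Psmb3 had the lowest, -0.0098 (-0.065 to 0.045), with 123, 126 and 125 FPKM against 123, 122 and 127 FPKM. The groups overlapped for both. Psmb4 had the narrowest interval of all members, -0.027 to 0.055 around 0.014.

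**Figure D3:**
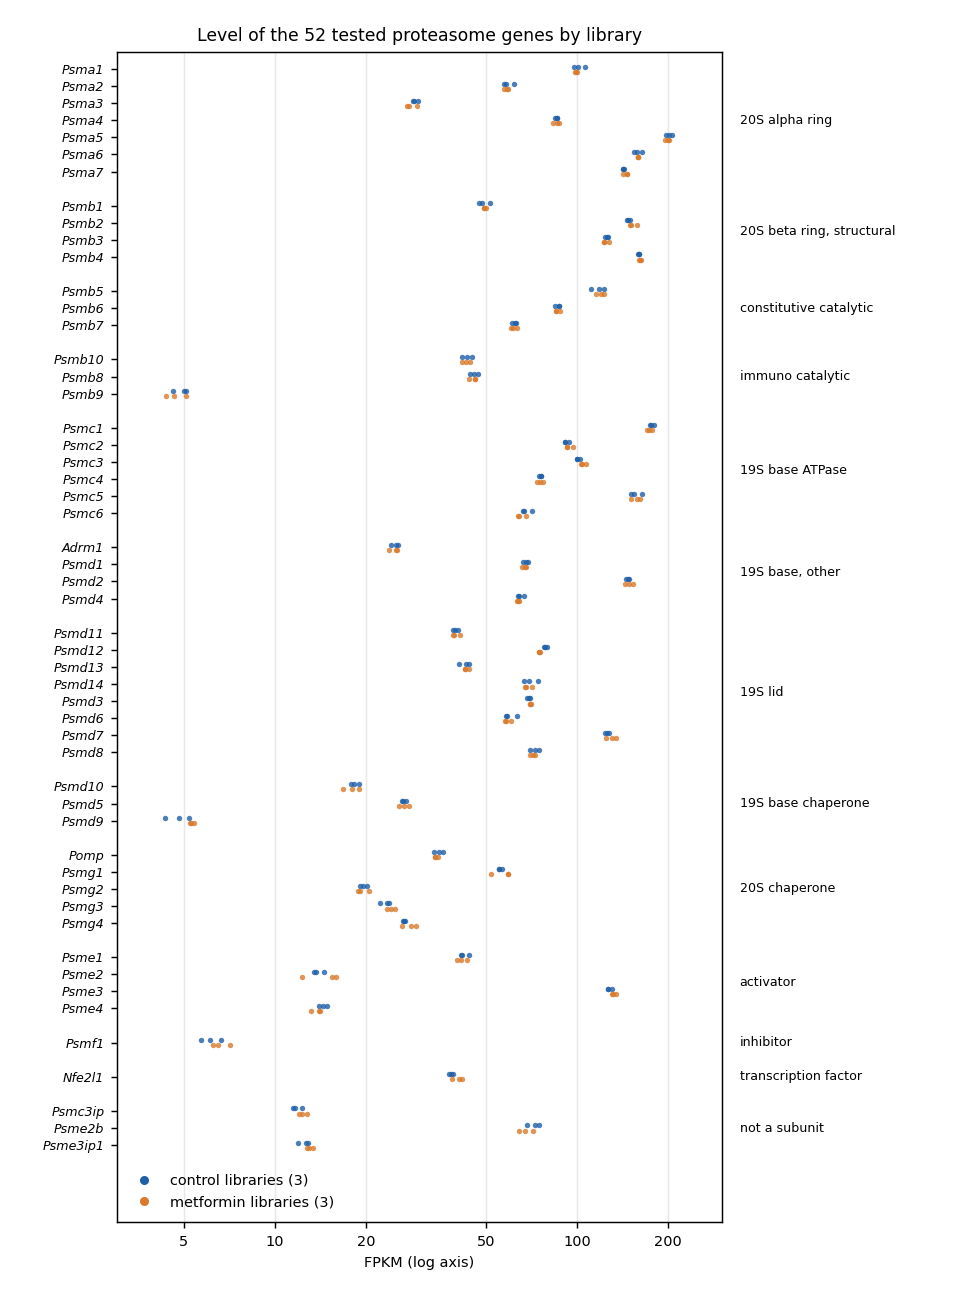
Level of the 52 tested members in each control (blue) and metformin (orange) library, in FPKM on a log axis, by role. The 2 colours lie on top of each other for nearly all genes, while the genes themselves span from 4.78 FPKM (Psmb9) to 200 FPKM (Psma5).

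The 3 constitutive catalytic subunits were present at 61.7 FPKM or more. Psmb5, which carries the chymotrypsin-like site, was measured at 111, 118 and 122 FPKM in the control libraries (117 ± 5.83, SD, n = 3) and at 122, 119.6 and 115 FPKM in the metformin libraries (119.0 ± 3.52, n = 3). Psmb6, with the caspase-like site, was measured at 84.3, 86.8 and 86.7 FPKM and at 84.7, 87.3 and 84.9 FPKM. Psmb7, with the trypsin-like site, was measured at 62.5, 60.6 and 62.0 FPKM and at 60.5, 63.0 and 61.4 FPKM. The groups overlapped in each of these genes, and the log2 fold changes were 0.025 (-0.069 to 0.12), -0.0052 (-0.061 to 0.050) and -0.0025 (-0.062 to 0.057).

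The immunoproteasome subunits were present too, although interferon, the known inducer of these genes, is not among the additions that the labels name for the culture. Psmb8, the counterpart of Psmb5, was measured at 44.1, 45.7 and 46.8 FPKM in the control libraries and at 45.8, 43.8 and 45.8 FPKM in the metformin libraries. Psmb10, the counterpart of Psmb7, was measured at 41.6, 43.3 and 44.8 FPKM and at 42.7, 41.5 and 44.3 FPKM. Psmb9, the counterpart of Psmb6, was far lower, at 4.99, 5.07 and 4.59 FPKM and at 5.06, 4.36 and 4.63 FPKM. The groups overlapped in all 3 genes, and the log2 fold changes were -0.013 (-0.087 to 0.061) for Psmb8, -0.013 (-0.098 to 0.073) for Psmb10 and -0.051 (-0.20 to 0.095) for Psmb9. Psmb9 rests on the fewest counts of the 6, about 223 to 260 fragments in a library, which alone gives an error of 6.43%. Psmb11, the catalytic subunit of the thymus, was at 0 to 0.02 FPKM.

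**Figure D4:**
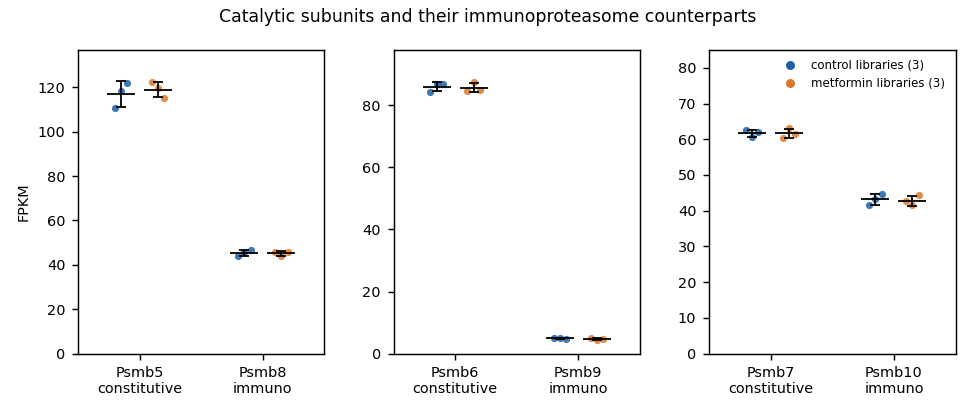
FPKM (y axes, from 0) of each constitutive catalytic subunit and its immunoproteasome counterpart in control (blue) and metformin (orange) libraries, with the mean (long black bar) and SD (whiskers) of 3 libraries. Each immunoproteasome gene lies below its counterpart, Psmb9 at 4.88 and 4.68 FPKM lowest, and the groups overlap in all 6 genes.

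In each library the level of an immunoproteasome gene was divided by that of its counterpart. The ratio of Psmb8 to Psmb5 was 0.389 ± 0.00824 in the control group and 0.379 ± 0.0160 in the metformin group (n = 3 each). The ratio of Psmb10 to Psmb7 was 0.700 ± 0.0306 and 0.695 ± 0.0332, and that of Psmb9 to Psmb6 was 0.0568 ± 0.00340 and 0.0547 ± 0.00491. On the log2 scale the metformin group differed from the control group by -0.038, -0.010 and -0.046, with exact two-sided permutation p-values of 0.4, 0.7 and 0.7, each 0.7 after adjustment over the 3 ratios. With 3 libraries a group, the smallest p that this test can give is 0.1. A difference of the ratios was therefore not shown, and Psmb9 stood apart from the other 2 immunoproteasome genes in all 6 libraries.

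The size of these ratios, but not the comparison of the groups, depends on the length by which fragments were divided. The FPKM values match the length of all exons of a gene joined: of the low values of 505 genes, 76.4% fell within 0.1 of a whole number of fragments with that length, against 10.98% with the longest transcript and 17.2% with the mean of the transcripts. This length was 2736 bases for Psmb8, whose coding transcript has 1628, and 922 bases for Psmb5, whose coding transcript has 871. Divided by the length of the coding transcript instead, the control ratio was 0.618 for Psmb8 to Psmb5, 0.669 for Psmb10 to Psmb7 and 0.0656 for Psmb9 to Psmb6. Divided by the length of the coding sequence, these ratios were 1.11, 0.743 and 0.121, which puts Psmb8 above Psmb5. That Psmb8 lay below Psmb5 thus depends on the length, whereas Psmb10 lay below Psmb7 and Psmb9 below Psmb6 by each of these lengths, with the ratio of Psmb9 the lowest. Among the 52 tested members, 23 had a joined length more than 1.5 times that of their coding transcript, up to 3.36 times for Psma7, so levels of different members are compared here as FPKM only.

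The ring of ATPases at the base of the 19S particle comprises Psmc1 to Psmc6, with means from 66.5 FPKM (Psmc6) to 175 FPKM (Psmc1). Psmc3 had the highest log2 fold change of the ring. It was measured at 99.6, 100.02 and 102 FPKM in the control libraries (100.5 ± 1.11) and at 107, 103 and 104 FPKM in the metformin libraries (104.6 ± 2.32). Each metformin library was above each control library, with a log2 fold change of 0.057 (95% interval 0.0019 to 0.11, unadjusted p = 0.044, limma adjusted p = 0.45). Psmc6 had the lowest, -0.062 (-0.15 to 0.022), with 66.2, 70.9 and 66.8 FPKM against 67.4, 63.5 and 64.1 FPKM, and its groups overlapped. Psmc3 shares 4579 bp with Slc39a13 on the other strand, a gene at 2.69 FPKM.

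The other base subunits include the scaffolds Psmd1 and Psmd2 and the ubiquitin receptors Psmd4 and Adrm1. Psmd2 was the most abundant, at 147 FPKM, and had the highest log2 fold change of these 4, 0.013 (-0.051 to 0.076), with 149, 145 and 147 FPKM against 143, 149 and 152 FPKM. Psmd4 had the lowest, -0.022 (-0.081 to 0.037), with 63.4, 64.2 and 66.6 FPKM against 63.7, 63.4 and 64.1 FPKM. Adrm1 was measured at 25.2, 24.2 and 25.5 FPKM and at 25.3, 25.1 and 23.8 FPKM, with a log2 fold change of -0.014 (-0.098 to 0.069). The groups overlapped in all 3 genes.

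The lid cuts ubiquitin chains from the substrate through its metalloprotease Psmd14, which was measured at 69.3 FPKM. The 8 lid genes among the members had means from 39.5 FPKM (Psmd11) to 128 FPKM (Psmd7). Psmd12, a structural lid subunit, was measured at 78.0, 79.4 and 77.6 FPKM in the control libraries (78.3 ± 0.947) and at 74.6, 74.5 and 75.4 FPKM in the metformin libraries (74.8 ± 0.462). Every metformin library was below every control library, and the log2 fold change was -0.065 (95% interval -0.11 to -0.017, unadjusted p = 0.015, limma adjusted p = 0.37). Psmd7 had the highest log2 fold change, 0.047 (-0.024 to 0.12), with 127, 126 and 124 FPKM against 134, 130.3 and 125 FPKM, and its groups overlapped. Psmd3 was measured at 69.2, 68.2 and 69.8 FPKM and at 70.0, 70.1 and 70.0 FPKM, a separation without overlap of 0.020 on the log2 scale (-0.029 to 0.068).

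The members of each complex summed to nearly the same level in both groups. The 14 genes of the core without the immunoproteasome subunits summed to 1522 ± 18.3 FPKM in the control group and 1526 ± 1.74 FPKM in the metformin group. The 18 members of the 19S particle summed to 1529 ± 13.98 and 1528 ± 7.19 FPKM, and the 3 immunoproteasome genes to 93.6 ± 2.73 and 92.6 ± 2.63 FPKM. Each difference between the groups was within the SD of the control group.

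Chaperones guide the assembly of the base and of the core. Of the base chaperones, Psmd9 was measured at 5.18, 4.32 and 4.81 FPKM in the control libraries and at 5.25, 5.27 and 5.40 FPKM in the metformin libraries. Its log2 fold change of 0.13 was the highest of all members (-0.014 to 0.28, unadjusted p = 0.070, limma adjusted p = 0.49), and its groups did not overlap, although control library 1 was close to the metformin libraries. Psmd10 had the lowest of this group, -0.030 (-0.14 to 0.083), with 17.8, 18.9 and 18.2 FPKM against 19.01, 17.9 and 16.8 FPKM. Psmd5 was measured at 26.7 FPKM in both groups.

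The core chaperones Psmg1 to Psmg4 and the maturation factor Pomp had means from 19.5 FPKM (Psmg2) to 56.0 FPKM (Psmg1). Pomp, which guides the closing of the core, was measured at 36.1, 34.8 and 33.5 FPKM in the control libraries and at 33.9, 33.7 and 34.7 FPKM in the metformin libraries, with the lowest log2 fold change of these genes, -0.027 (-0.10 to 0.051). Psmg3 had the highest, 0.059 (-0.025 to 0.14), with 23.8, 22.3 and 23.4 FPKM against 24.1, 23.5 and 24.9 FPKM. The groups overlapped in both.

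Activators open the core in place of the 19S particle. Psme3, the nuclear activator PA28 gamma, had the highest FPKM of these genes, at 130.4, 126 and 127 FPKM in the control libraries and 130.6, 135 and 131 FPKM in the metformin libraries. All metformin values were above all control values, by a small margin in control library 1, with a log2 fold change of 0.049 (-0.0051 to 0.10, unadjusted p = 0.070, limma adjusted p = 0.49). Psme1, a subunit of the interferon-inducible PA28 activator, was measured at 41.5, 41.1 and 43.7 FPKM and at 40.1, 43.0 and 41.2 FPKM, with a log2 fold change of -0.021 (-0.11 to 0.065). Psme2, its partner, was measured at 13.4, 14.5 and 13.6 FPKM and at 15.5, 15.9 and 12.2 FPKM, with the highest log2 fold change of the activators, 0.054 (-0.16 to 0.27). Metformin library 3 was the lowest of all 6 for Psme2 and the others of its group the highest, so this gene had the widest interval of all. Psme4, the activator PA200, had the lowest, -0.067 (-0.16 to 0.028), with 14.4, 14 and 14.9 FPKM against 14.1, 13.1 and 14.01 FPKM. Psmf1, the inhibitor PI31, was measured at 6.62, 6.11 and 5.68 FPKM and at 7.07, 6.46 and 6.25 FPKM, with a log2 fold change of 0.090 (-0.061 to 0.24) and overlapping groups.

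Near-identical copies touch the levels of several members. Aligned to the mouse genome, 11 members had a copy outside their own gene (at least 95% identity over at least 500 bases and 60% of the transcript), and 7 of them had one listed at a mean of at least 1 FPKM. Psme2b, the copy whose coding sequence is shown above (chr11:48945354-48946190 on GRCm38, minus strand), was measured at 72.5, 74.6 and 68.2 FPKM in the control libraries and at 64.3, 66.9 and 71.5 FPKM in the metformin libraries. FPKM values divided by different lengths (837 bases for Psme2b and 1764 for Psme2) cannot be added, so they were turned back into fragments, of which Psme2b held 69.9% of those of the pair. Its log2 fold change of -0.086 (-0.20 to 0.025) was the lowest of all members, whereas that of Psme2 lay above 0. With the fragments of both over the length of Psme2, the pair measured 47.9 ± 1.99 FPKM in the control group and 46.6 ± 0.907 FPKM in the metformin group.

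Gm13835, annotated as a pseudogene (chr6:31141979-31142663, minus strand), matched the transcript of Psma3 at 99.9% over 969 of 1394 bases. It was measured at 108 FPKM on average over a length of 685 bases, and Psma3, at 28.6 FPKM over 3894 bases, was the lowest gene of the alpha ring. In fragments Gm13835 held 39.97% of those of the pair. With the fragments of both over the length of Psma3, the pair measured 48.2 ± 1.51 FPKM in the control group and 47.2 ± 1.66 FPKM in the metformin group. By joined length this was under Psma2, the next lowest alpha gene at 58.7 FPKM. The joined length was 1.37 times that of the coding transcript for Psma3 and 1.00 times for Psma2. Whether the pair stays under Psma2 by the length of the coding transcript is therefore not shown here. Copies were also measured for Psma5 (Psma5-ps at 23.6 FPKM and Gm12989 at 27.8 FPKM), Psma4 (43.7 FPKM), Adrm1 (Gm9774 at 4.16 FPKM) and Psmb3 (6.78 FPKM), each below its member in FPKM. How the authors assigned fragments that match several places is not given in the sources used here, so the level of each of these genes is uncertain, and the part of such fragments in it was not tested.

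**Figure D5:**
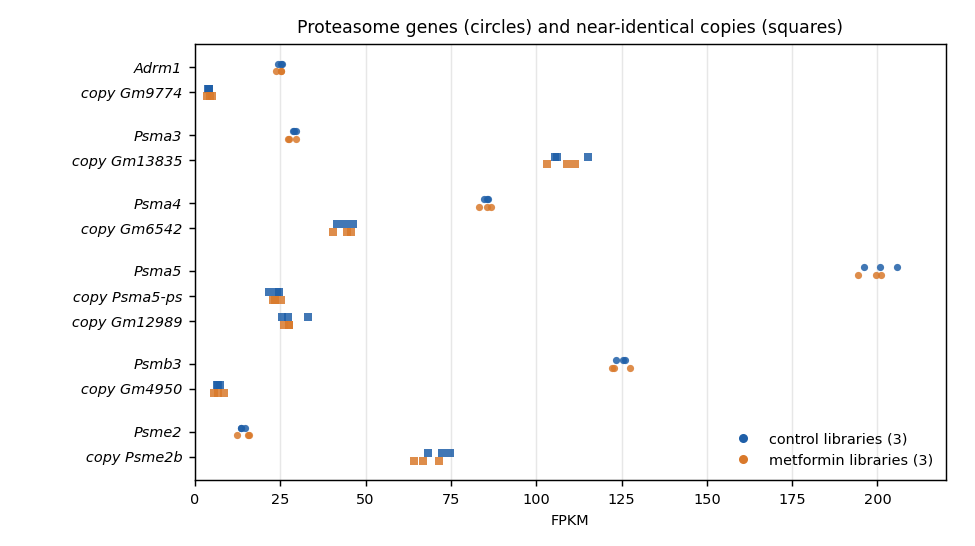
FPKM (x axis) of 6 members (circles) and of their near-identical copies listed at 1 FPKM or more (squares) in control (blue) and metformin (orange) libraries. In FPKM, which divides by unequal lengths, Gm13835 and Psme2b lie above the genes they resemble and the copies of the other 4 genes below them.

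Nfe2l1, the transcription factor named above, was measured at 38.8, 38.3 and 37.5 FPKM in the control libraries and at 40.5, 38.6 and 41.6 FPKM in the metformin libraries. The groups overlapped, and the log2 fold change was 0.072 (-0.0059 to 0.15, unadjusted p = 0.065, limma adjusted p = 0.49). Of the 2 genes named for binding a subunit, Psmc3ip, a factor of meiotic recombination, had means of 11.8 and 12.3 FPKM and Psme3ip1 of 12.5 and 13.03 FPKM in the control and metformin groups. Their log2 fold changes were both 0.057, with intervals from -0.037 to 0.15.

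Genes that act before and beside the proteasome were read from 6 lists of 48 genes, of which 47 were tested and Ddi1 was at 0 in all libraries. None passed at an adjusted p of 0.05, and 7 (14.9%) had an unadjusted p under 0.05 beside 10.8% of all genes, 4 of them higher and 3 lower. Ufd1, an adaptor of the p97 unfoldase that hands substrates to the proteasome, was measured at 12.3, 12.7 and 11.5 FPKM and at 10.8, 10.6 and 10.4 FPKM, a log2 fold change of -0.18 (-0.28 to -0.078, limma adjusted p = 0.33) without overlap.

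The other 6 of these genes had smaller differences. The ubiquitin-activating enzymes Uba1 (151 ± 1.61 against 158 ± 0.956 FPKM, 0.060 on the log2 scale) and Uba6 (13.8 ± 0.377 against 12.6 ± 0.495 FPKM, -0.11) lay on opposite sides of 0. Ecpas, a scaffold bound to the proteasome, measured 32.03 ± 0.121 against 30.6 ± 0.436 FPKM (-0.063). The shuttle receptors Ubqln4 (47.4 ± 1.02 against 49.8 ± 0.904 FPKM) and Sqstm1 (91.3 ± 2.53 against 95.9 ± 2.53 FPKM) both had a log2 fold change of 0.070, and the p97 cofactor Ubxn1 (34.2 ± 0.926 against 36.1 ± 0.122 FPKM) one of 0.077. The adjusted p of these 6 was between 0.37 and 0.46 (limma). Sqstm1 was the only one of the 7 whose groups overlapped.

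By list, 2 of the 5 ubiquitin precursor and activating enzyme genes and 1 of 7 genes of proteasome-bound proteins were among these 7. So were 2 of 6 shuttle receptors and 2 of 6 p97 complex genes. The share of each list stands beside 10.8% of all genes. Over all lists the groups did not overlap for 12 of the 47 genes (25.5%), beside 17.0% of all genes. None of the 13 regulators of proteasome genes and none of the 10 genes of class I antigen processing was among the 7 with an unadjusted p under 0.05. The groups did not overlap for 2 regulators (Keap1 and Ddi2, 15.4%) and 1 class I gene (Nlrc5, 10%), each beside 17.0% of all genes. Of the regulators, Ddi2, the protease that activates Nfe2l1, measured 13.9 ± 0.273 against 14.5 ± 0.202 FPKM and Ngly1, which removes its sugars, 4.05 ± 0.0321 against 4.10 ± 0.0462 FPKM, with log2 fold changes of 0.052 and 0.012. The class I genes included Tap1, which shares 212 bp with Psmb9 on the other strand, at 8.85 ± 0.406 against 9.11 ± 0.425 FPKM, and B2m at 390.4 ± 16.6 against 377 ± 5.41 FPKM. Their median log2 fold change was -0.0023.

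Several members overlap other genes of at least 1 FPKM. Psma2 shares 8943 bp with AW209491 (8.56 FPKM) and Psmd13 1194 bp with Gm15542 (21.6 FPKM), both on the same strand. On the opposite strand Psmb7 shares 6571 bp with Nek6 (3.88 FPKM) and Psmb10 all of its 2710 bp with Gm16156 (1.08 FPKM). The labels name a stranded library kit and the study's methods another, and the sources do not state whether counting used strand, so fragments in these stretches may belong to either gene.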

How the data were processed

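RNA was sequenced from 3 control and 3 metformin-treated libraries of FGSCs. The authors deposited FPKM values of 55401 Ensembl genes, with positions of GRCm38. The submitters' processing notes name HISAT2, DESeq2 and mm9, without roles, and counter, annotation and versions are not given in the sources used here. Gene symbols were taken by identifier (32589 rows). Psmb9 was named by position (chr17:34181987-34187764) in RefSeq GRCm38.p6, and older symbols by RefSeq synonym.

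Values were tested as log2(FPKM + 1), with a pseudocount of 1, on the 10661 genes averaging 1 FPKM or more, with limma (version 3.58.1, R 4.3.3; lmFit, eBayes with trend, two-sided, Benjamini-Hochberg, threshold 0.05), tested on simulated data first. On this scale the changes of low genes appear too small. Ratios of subunits were compared by exact permutation. Copies were sought with minimap2 (2.31-r1302) on NCBIM37, and their positions read from the table. Intervals of counting cover counting error only.

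The members and lists were chosen with earlier results of these data known. Named were the catalytic subunits, Nfe2l1, Pomp, Adrm1, Psmf1 and Psme1 to Psme4, the highest and lowest fold change of each role, every member that passed or did not overlap, and list genes at an unadjusted p under 0.05. Others named for their levels, copies or overlaps were chosen after their values were seen. Alternatives were other pseudocounts, filters, scalings, a fit without trend, a replicate block and leaving out each library. One gene of these lists is not reported here.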

Additional observations from a re-analysis of the deposited data

How the results depend on the processing

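No proteasome gene passed at an adjusted p of 0.05 under any of the 14 alternative fits, and the lowest adjusted p of a member over them was 0.27. At an unadjusted p under 0.05, 2 members were called (3.85%, beside 10.8% of all genes). The unadjusted count moved to 0 without control library 2 and without a trend (0%, beside 8.60% and 9.73% of all genes). It was 1 (1.92%) with the replicate block, rescaling to the same sum and median centring, beside 9.65%, 10.8% and 10.7%. Without control library 1 it was 3 (5.77%, beside 9.34%) and without metformin library 2 it was 4 (7.69%, beside 9.92%). Without metformin library 3 it was 6 (11.5%, beside 9.60%), the only fit in which the members' share was the higher. Psmd12 kept an unadjusted p under 0.05 in 12 of the 14 and Psmc3 in 5. The sign of the log2 fold change was the same in all fits for 26 of the 52 members. With no filter the count over all genes was 7, of 22809 tested, against 3, and without 1 library it was 3 to 4. Without 1 library the members' median was -0.0080 to 0.0062 and no member was called (0). The higher and lower genes at an unadjusted p under 0.05 were 643 and 513 as reported. They were 568 and 584 after rescaling to the same sum, and 559 and 579 after quantile normalization, so the larger count passed to the lower genes. The median log2 fold change of all genes in these fits was 0.0041, 0.00013 and -0.0013.

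Over all genes tested, the deviations of same-numbered control and metformin libraries were hardly correlated (-0.032, 0.018 and 0.048). These deviations also hold counting error, so whether such libraries shared a culture or batch was not tested. With the replicate block 2 genes were called, 0 of them members, and the members' median was -0.0020. For the log2 ratios the signs of the 3 same-numbered differences were flipped in every way. This exact test gave p-values of 0.5 (Psmb8 to Psmb5), 1 and 1, and with so few differences it cannot reach 0.05. Leaving out 1 library gave differences of -0.071 to -0.014 for Psmb8 to Psmb5, -0.10 to 0.0099 for Psmb9 to Psmb6 and -0.046 to 0.028 for Psmb10 to Psmb7. Chosen after seeing the data, the length of the coding transcript gave control ratios of 0.618 (Psmb8 to Psmb5), 0.0656 (Psmb9 to Psmb6) and 0.669 (Psmb10 to Psmb7) in place of 0.389, 0.0568 and 0.700, and the length of the coding sequence gave 1.11, 0.121 and 0.743.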
